A study of Mus musculus with 4 samples.

Results

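The genes described here are 8 transcription factor genes associated with the primed epiblast (Otx2, Pou3f1, Sox3, Zic2, Zic5, Foxd3, Sall2 and Sox4) and the kinase gene Pim2, measured in mouse embryonic stem cell (ESC) lines with and without Dppa2. They were taken as a list of 9 genes, and their values are those of every array probe whose transcript accession maps to one of the symbols. Of the 9 genes, 8 had a probe, 10 probes in all, out of 18217 genes with a symbol and a probe on the array. No probe accession mapped to Sox3, a Sox factor gene on chromosome X, so Sox3 has no value here. All 8 measured genes passed the filter on dim probes, and each was well above background on all 4 arrays.

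RNA was hybridised to Agilent whole mouse genome arrays, with Cy3 as the label and 1 array per line. The 2 wild-type (WT) lines were 15-1+/+ and 15-2+/+, that is, they had both copies of Dppa4 (ECAT15-1) and Dppa2 (ECAT15-2). The 2 deficient (KO) lines were 15-2-/- and also 15-1CT/CT, a conditional targeted allele on both copies of Dppa4, so WT and KO lines differ at both loci. WT 1 and KO 1 came from blastocysts of mother 1046, and WT 2 and KO 2 from mother 875. The mice were of mixed 129Sv and C57/BL6 background with an unknown contribution from Cre or FLPe transgenic animals. All lines were grown for 3 days on gelatin in medium with LIF and 15% fetal calf serum. Each line is a single derivation, and nothing shows repeat cultures. The p-values rest on the spread between 2 lines per group, which limma moderates towards that over all genes.

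Pluripotent cells of the early embryo pass from a naive state, held in culture by LIF, to a primed state that precedes gastrulation. Otx2 and Pou3f1 are among the factors that accompany this step, Zic, Sox and Foxd3 proteins bind enhancers of genes that change with it, and primed cells carry early traces of neural and germ-layer programs. The Pim kinases are serine/threonine kinases without a regulatory domain, whose activity follows their transcript level and which promote survival and protein synthesis.

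The RefSeq promoter windows of the 3 genes with the smallest unadjusted p in the KO against WT comparison (Sox4, Foxd3 and Pim2) are shown first. Each window has 300 bases, from 250 before to 50 after the annotated start, on build GRCm38.p6, and is written 5′ to 3′ on the strand of the gene. Capitals mark exact matches on either strand to 7 motifs: the POU octamer ATTTGCAT, the cyclic AMP response element TGACGTCA, the CCAAT box CCAAT, the E-box CACGTG, the GC box GGGCGG, the TATA box TATAAA and the bicoid-class homeodomain site TAATCC.
Sox4, chr13:28953650-28953949, minus strand: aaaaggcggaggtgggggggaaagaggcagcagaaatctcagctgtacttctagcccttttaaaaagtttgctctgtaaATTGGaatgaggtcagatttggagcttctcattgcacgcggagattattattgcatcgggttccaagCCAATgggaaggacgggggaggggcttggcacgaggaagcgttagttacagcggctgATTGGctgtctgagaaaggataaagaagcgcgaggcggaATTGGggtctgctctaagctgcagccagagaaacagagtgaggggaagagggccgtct
Pim2, chrX:7878056-7878355, plus strand: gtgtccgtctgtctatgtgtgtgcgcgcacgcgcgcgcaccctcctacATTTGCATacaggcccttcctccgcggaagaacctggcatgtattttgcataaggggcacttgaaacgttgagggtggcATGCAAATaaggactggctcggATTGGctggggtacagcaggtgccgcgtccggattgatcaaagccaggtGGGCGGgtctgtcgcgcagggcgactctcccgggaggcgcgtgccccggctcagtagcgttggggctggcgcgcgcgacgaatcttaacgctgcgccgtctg
Foxd3, chr4:99656049-99656348, plus strand: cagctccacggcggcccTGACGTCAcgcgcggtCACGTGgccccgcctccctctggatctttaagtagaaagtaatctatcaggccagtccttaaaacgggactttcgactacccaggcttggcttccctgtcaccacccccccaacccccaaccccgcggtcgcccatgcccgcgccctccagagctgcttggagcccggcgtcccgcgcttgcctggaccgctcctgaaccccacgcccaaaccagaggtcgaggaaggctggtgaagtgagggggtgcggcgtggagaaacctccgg

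The Sox4 window held 4 CCAAT box matches and none to the other 6 motifs. At least 1 CCAAT match was present in 37.4% of 32851 windows of this length and 4 or more in 1.06%. The Pim2 window held 2 octamer matches, one on each strand, starting 202 and 123 bases before the annotated start, besides 1 CCAAT and 1 GC box match. At least 1 octamer was present in 1.74% of all windows and 2 or more in 0.107%. The octamer is the sequence bound by POU factors, the class to which Pou3f1 and Pou5f1 belong. The Foxd3 window held 1 cyclic AMP response element, found in 1.79% of windows, and 1 E-box, found in 7.15%. The other 5 genes had windows as follows: 4 for Otx2, 2 for Sall2 and 1 for Zic5 with no octamer match in any of them, and none listed for Pou3f1 and Zic2. A match is a description of letters in a window.

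Levels are log2 of the processed spot signal, scaled so that the 75th percentile of all arrays is equal. Probes differ in sequence, so a level can be compared between lines for 1 gene and not between genes. Between 68.4% and 70.3% of 41174 probes were well above background on an array, the dimmest of these at log2 3.24 to 3.58, and no spot was saturated. The targeted gene Dppa2 was 31.4-fold lower in the KO lines (log2 difference -4.97, SE 0.12, n = 2 per group, limma adjusted p = 0.00886). All 9 ESC-defining genes with a probe, among them Pou5f1 and Sox2, were well above background on all 4 arrays. So were 17 of 18 fibroblast, 10 of 12 trophoblast, 13 of 15 primitive endoderm, 10 of 14 neural and 8 of 12 mesoderm markers. Signal above background therefore does not single out ESC markers. The Y-linked genes Ddx3y and Eif2s3y were at log2 11.33 and 12.69 in WT 1 and not well above background in WT 2, KO 1 and KO 2, so WT 1 alone carried Y-chromosome transcripts.

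Across the 8 measured genes, 1 fell (Sox4), 0 rose and 7 did not pass the test over all 21639 genes and transcripts in limma (unadjusted p under 0.05 for 2 lower and 1 higher, against 12.4% and 11.2% of all genes). Over all genes tested, 1.67% were called lower and 0.176% higher. Both KO lines lay below both WT lines for 5 genes (Sox4, Pim2, Otx2, Sall2 and Pou3f1), against 24.5% of all genes, and above both for 1 (Foxd3), against 37.7%. The lines overlapped for Zic2 and Zic5. KO minus WT was below 0 for 7 genes (40.8% of all genes), below 0 in both pairs of lines for 6 (29.3%) and above 0 in both for 1 (46.7%), and 0 were at least 2-fold higher in both pairs (1.56%). The median log2 difference of the 8 genes was -0.62, beside 0.10 over all genes. The genes were listed with results of these lines known, so these counts describe the list. In bulk RNA, fewer cells of a type and less RNA per cell cannot be told apart. Across 6 scalings the median of all genes lay between 0.016 and 0.28, and the sign of none of the 8 differences changed. Under another background correction with quantile scaling, Zic5 came to -0.001 and its pair of mother 1046 to 0.026, so it was not below 0 in both pairs there. With the mother as a block, 0 of 21639 genes passed in limma, so no call given here, for Dppa2 and the listed genes as well, is kept in that fit.

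**Figure D1:**
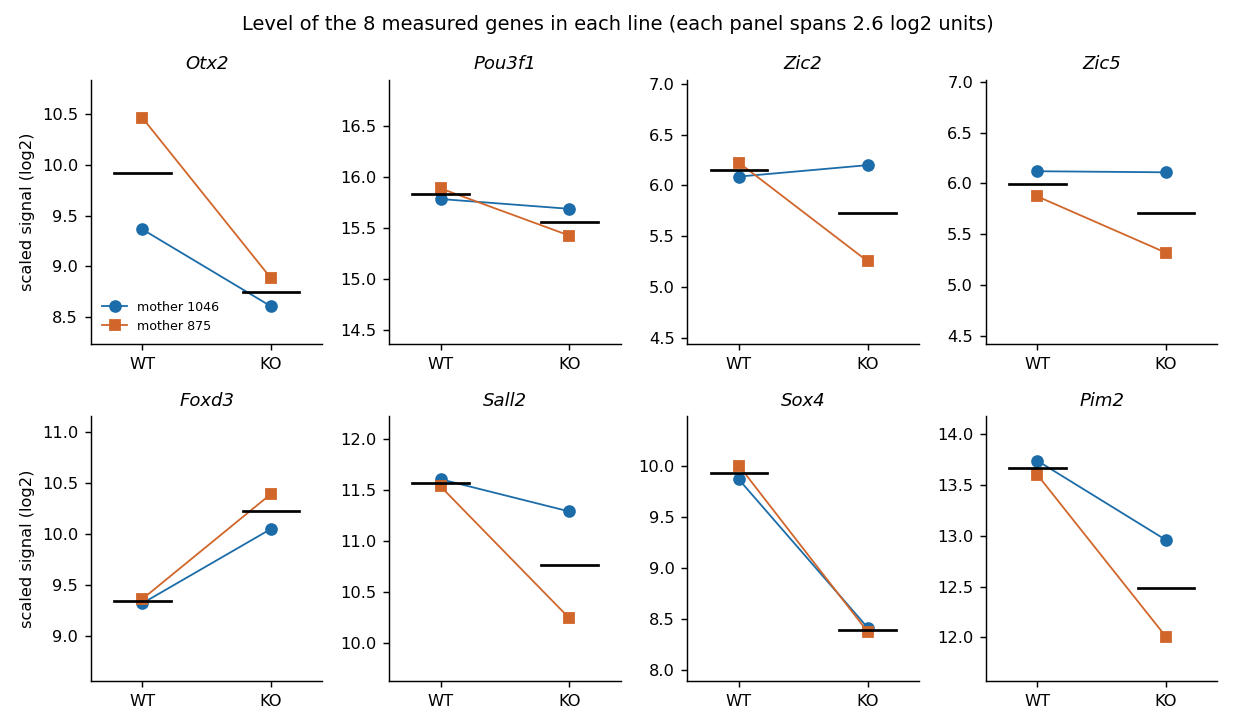
Scaled log2 signal (vertical axis) of each measured gene in the 2 WT and 2 KO lines (horizontal axis). Circles are lines of mother 1046, squares lines of mother 875, coloured lines join the lines of a mother, and black bars are group means; Sox4 lies at 9.87 and 10.004 in WT and at 8.41 and 8.37 in KO lines, while Zic2 and Zic5 are low in KO 2 only.

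Sox4 encodes a Sox factor of the C group that is active in progenitor cells of many tissues. Its signal was 9.87 in WT 1, 10.004 in WT 2, 8.41 in KO 1 and 8.37 in KO 2. The lines fell into 2 tight pairs by genotype, with an SD of 0.10 in WT and 0.03 in KO lines. Sox4 was 2.92-fold lower in KO lines (log2 difference -1.54, SE 0.13, 95% interval -1.92 to -1.17, n = 2 per group, limma adjusted p = 0.0372). The fall was 2.75-fold in the pair of mother 1046 and 3.101-fold in that of mother 875, the only gene of the 8 at least 2-fold lower in both pairs; 6.94% of all genes were. With the mother as a block the difference is the same and limma's adjusted p is 0.101, in a fit where 0 of 21639 genes passed. Without WT 1, WT 2, KO 1 or KO 2 the log2 difference was -1.61, -1.48, -1.57 and -1.52. Sox4 did not pass in these fits, each of which leaves a single line in 1 group. The value rests on 1 probe printed as 1 spot.

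Relatives of Sox4 had differences of either sign. Of 15 other Sox genes tested, 1 fell, 0 rose and 14 did not pass, where 1.67% of all genes were called lower and 0.176% higher. A negative difference was seen for 5 and a positive one for 10 (7 and 8 under 1 other scaling), against 40.8% and 59.2% of all genes. The median was 0.37, beside 0.10 over all genes. The member that fell was Sox6, a group D factor gene, at 7.55 and 7.39 in WT and 5.62 and 5.90 in KO lines (log2 difference -1.71, SE 0.17, n = 2 per group, limma adjusted p = 0.0455). It passed in 4 of 16 alternatives, and not under quantile scaling, median centring or the deposited values. The other C-group genes did not pass: Sox11 had a log2 difference of -0.52, and Sox12 one of 0.13, which turned to -0.06 under 1 other scaling. Sox2, the pluripotency factor gene, differed by 0.85 (limma adjusted p = 0.0883). Sox11 and Sox12 were singled out after their values were seen.

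Pim2 was measured by 3 probes, all on the same transcript. The brightest gave 13.74 in WT 1, 13.60 in WT 2, 12.96 in KO 1 and 12.01 in KO 2. Both KO lines were below both WT lines, and KO 2 was the lowest (KO 2 minus KO 1, -0.95). The difference of the means was 2.28-fold (log2 difference -1.19, SE 0.37, 95% interval -2.25 to -0.12, n = 2 per group) and did not pass over all genes (limma adjusted p = 0.190, unadjusted p = 0.0370). The pair of mother 1046 differed by 1.72-fold and that of mother 875 by 3.02-fold. Without KO 2 the log2 difference was -0.71, and without KO 1 it was -1.66. The other 2 probes had log2 differences of -1.17 and -1.18, so the 3 probes lay within 0.014 of each other, closer than the pairs of lines, at -0.78 and -1.59.

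Pim2 lies on chromosome X. WT 1 had Y-linked signal and KO 1 had none, so the pair of mother 1046 compares lines that differ in it. Neither line of the pair of mother 875 had Y-linked signal. The median log2 difference of 495 X-linked genes was -0.04, beside 0.07 for 13876 autosomal genes. In the pair of mother 1046 the medians were 0.006 for X-linked and 0.08 for autosomal genes. In the pair of mother 875 they were -0.11 and 0.06. Xist, the transcript of the inactive X chromosome, was at 3.65 in WT 1, 4.12 in WT 2, 3.72 in KO 1 and 5.52 in KO 2. The dimmest probes well above background lay at log2 3.24 to 3.58, so Xist was dim and in WT 1 close to that limit. The part of the X chromosome in the Pim2 difference was not tested.

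A list of other Pim family and LIF and STAT3 pathway genes also held Bad and Eif4ebp1, which changed sign under other scalings. The list had 8 positive and 4 negative differences (9 and 3 under median centring), and 59.2% of all genes had a positive one. Of 12 tested, 0 fell, 0 rose and 12 did not pass in limma, with a median of 0.50. An unadjusted p under 0.05 was seen for 0 lower and 6 higher, against 12.4% and 11.2% of all genes. Pim3 was at 12.60 and 12.51 in WT and 13.36 and 13.39 in KO lines and differed by 0.82 (log2, SE 0.12, n = 2 per group, limma adjusted p = 0.0828). Pim1 differed by -0.28 on the log2 scale (limma adjusted p = 0.515). The STAT3 feedback inhibitor gene Socs3 differed by 1.04, Stat3 by 0.53 and the STAT3 target Klf4 by 1.92 (limma adjusted p of 0.138, 0.138 and 0.101). Pim1, Bad and Eif4ebp1 were named after their values were seen.

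Otx2 encodes a homeodomain protein of the primed epiblast and of forebrain and midbrain. Its signal was 9.37 in WT 1, 10.46 in WT 2, 8.61 in KO 1 and 8.88 in KO 2. The WT lines were themselves 1.10 apart, close to the difference between the group means (log2 difference -1.17, SE 0.43, 95% interval -2.41 to 0.07, n = 2 per group, limma adjusted p = 0.224). The probe was printed 10 times on each array, and the SD between spots was 0.036 to 0.107 on the log2 scale, which covers the printing and reading of 1 array only. Otx2 was 1.69-fold lower in KO 1 than in WT 1 and 2.99-fold lower in KO 2 than in WT 2. Without WT 2 the log2 difference was -0.62 and without WT 1 -1.72.

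Pou3f1 encodes a POU factor of the primed epiblast and of early neural cells. Its signal was 15.79 in WT 1, 15.89 in WT 2, 15.69 in KO 1 and 15.43 in KO 2. The KO lines were lower than the WT lines by a small margin (log2 difference -0.28, SE 0.16, 95% interval -0.73 to 0.17, n = 2 per group, limma adjusted p = 0.349). The raw spot reached 14.5% of the brightest gene spot on its array at most, with no saturation flag. Of its relatives, Pou3f3 differed by -0.34 (limma adjusted p = 0.344), and neither Pou3f2 nor Pou3f4 exceeded background in any line by the scanner's rule.

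Sall2 encodes a zinc finger protein of the Spalt family. Its signal was 11.61 in WT 1, 11.54 in WT 2, 11.29 in KO 1 and 10.24 in KO 2. KO 2 stood below KO 1 (KO 2 minus KO 1, -1.05), and the pairs differed by 1.25-fold and 2.45-fold (log2 difference -0.81, SE 0.40, n = 2 per group, limma adjusted p = 0.311). Without KO 2 the log2 difference was -0.28, and without KO 1 it was -1.33. Sall4, the family member of the core pluripotency network, differed by 0.46 (log2; limma adjusted p = 0.178).

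Zic2 and Zic5 are zinc finger factor genes that neighbour each other on chromosome 14. Zic2 was at 6.09 in WT 1, 6.22 in WT 2, 6.20 in KO 1 and 5.25 in KO 2. Zic5 was at 6.12, 5.87, 6.11 and 5.32 in the same order. For both genes WT 1, WT 2 and KO 1 lay together and KO 2 was lowest, with KO 2 minus KO 1 at -0.94 for Zic2 and -0.79 for Zic5. The log2 differences were -0.43 for Zic2 (SE 0.37, limma adjusted p = 0.506) and -0.28 for Zic5 (SE 0.33, limma adjusted p = 0.612). Without KO 2 they became 0.044 and 0.11. Both signals were dim, with raw spot signals of 62.5 to 116.5 units over backgrounds of 26.0 to 31.5. Their relative Zic1 differed by 0.93 on the log2 scale (limma adjusted p = 0.136). Zic4 did not exceed background in any line by the scanner's rule.

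Foxd3 encodes a forkhead repressor needed for the maintenance of the epiblast and of neural crest. It was the only gene of the 8 with a positive difference, at 9.32 in WT 1, 9.36 in WT 2, 10.05 in KO 1 and 10.39 in KO 2. Both KO lines were above both WT lines, by more than either group's spread, 1.66-fold in the pair of mother 1046 and 2.05-fold in that of mother 875. The difference of the means was 1.84-fold (log2 difference 0.88, SE 0.17, 95% interval 0.38 to 1.38, n = 2 per group) and did not pass over all genes (limma adjusted p = 0.112, unadjusted p = 0.00872). Its relatives Foxd1, Foxd2 and Foxd4 had log2 differences of 0.18, -0.06 and -0.46, none passing, and Foxd2 reached 0.20 under another scaling.

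**Figure D2:**
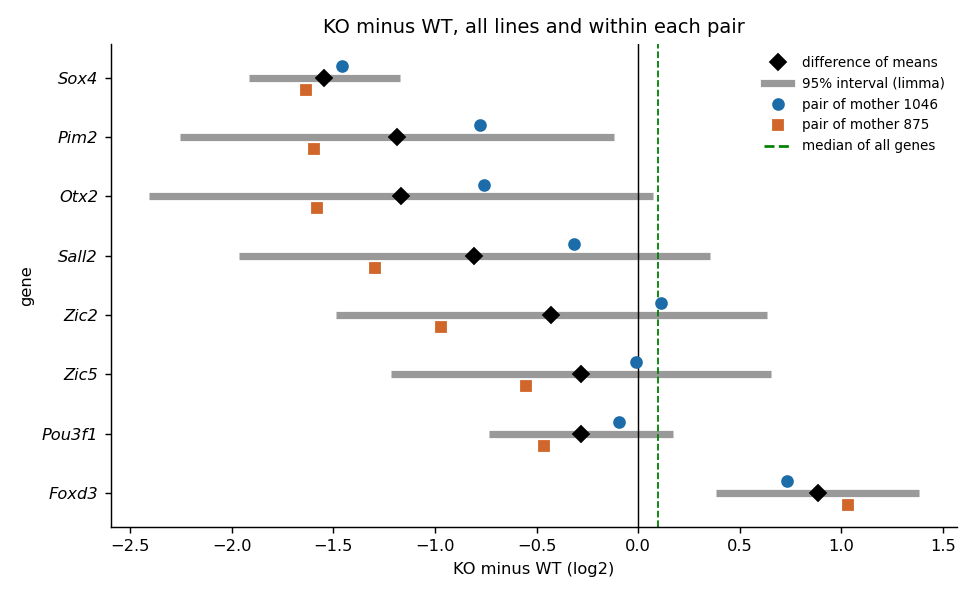
KO minus WT on the log2 scale (horizontal axis) for each measured gene (vertical axis). Black diamonds are differences of group means, grey bars limma's 95% intervals, circles and squares the pairs of mothers 1046 and 875, and the dashed line the median of all genes (0.10); the interval of Sox4 (-1.92 to -1.17) is the narrowest of those below 0, and the pair of mother 875 lies to the left for 7 of 8 genes.

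The pair of mother 875 had the lower KO minus WT value for 7 of 8 genes, all but Foxd3. Over all genes this held for 50.4%. The gap between the pairs was smallest for Sox4 (-0.18 on the log2 scale) and Foxd3 (0.30) and largest for Zic2 (-1.08) and Sall2 (-0.98). The gap has no test, since each pair has 1 array on each side. In a model with genotype and mother, the mother term passed for 0 of the 8 genes and for 0 of all genes in limma (0 of the 8 and 7.43% of all genes at an unadjusted p under 0.05). Its largest log2 values were 0.69 for Otx2, higher in lines of mother 875, and -0.56 for Sall2 (limma adjusted p of 0.677 and 0.714).

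Genes nearest in pattern were sought among 13475 genes with a symbol that were well above background on all arrays, by the Euclidean distance between the 4 values after each gene's mean was subtracted. Sox4 was nearest to Lancl3 (distance 0.06; 5.91 and 6.08 in WT, 4.52 and 4.40 in KO lines), and 31 genes lay within 0.25 of it. Pim2 was nearest to the glypican gene Gpc3 (0.05), Sall2 to Zfp426 (0.05), Foxd3 to Cfap70 (0.05), Zic2 to Sfxn4 (0.04) and Zic5 to Tesk2 (0.05). Otx2 had few neighbours: 3 genes lay within 0.25, the nearest being the forkhead gene Foxj1 at 0.21. Pou3f1, which varied least, had 963 within 0.25, the nearest being Fam174a. With 4 arrays, nearness says only that the 4 values run alike.

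Other genes of the primed epiblast were lower in the KO lines more often than not, and most did not pass. Of 23 tested from a list of 24, 1 fell, 0 rose and 22 did not pass, 18 had a negative difference (40.8% of all genes did), and the median was -0.52. Over 16 alternatives the count of lower genes ranged from 0 to 3. The growth factor gene Fgf8 differed by -3.14 and Fgf5 by -3.40 without passing (limma adjusted p of 0.0562 and 0.0588). Etv4, an ETS factor gene downstream of FGF signalling, differed by 1.45 (log2; limma adjusted p = 0.0682).

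The 11 tested genes of the naive state had positive differences, from 0.08 for Klf2 to 1.93 for the orphan nuclear receptor gene Nr0b1, with a median of 1.32; Klf2, named after its value was seen, turned to as low as -0.10 under other scalings. In limma 0 rose, 0 fell and 11 did not pass. An unadjusted p under 0.05 was seen for 0 lower and 6 higher, against 12.4% and 11.2% of all genes. Over all genes 59.2% had a positive difference. Esrrb, another orphan nuclear receptor gene, was at 13.10 and 12.46 in WT and 14.25 and 14.42 in KO lines (limma adjusted p = 0.0973). Both KO lines were above both WT lines for 10 of the 11, against 37.7% of all genes. They were below both for 5 of the 8 genes described here, against 24.5% of all genes.

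**Figure D3:**
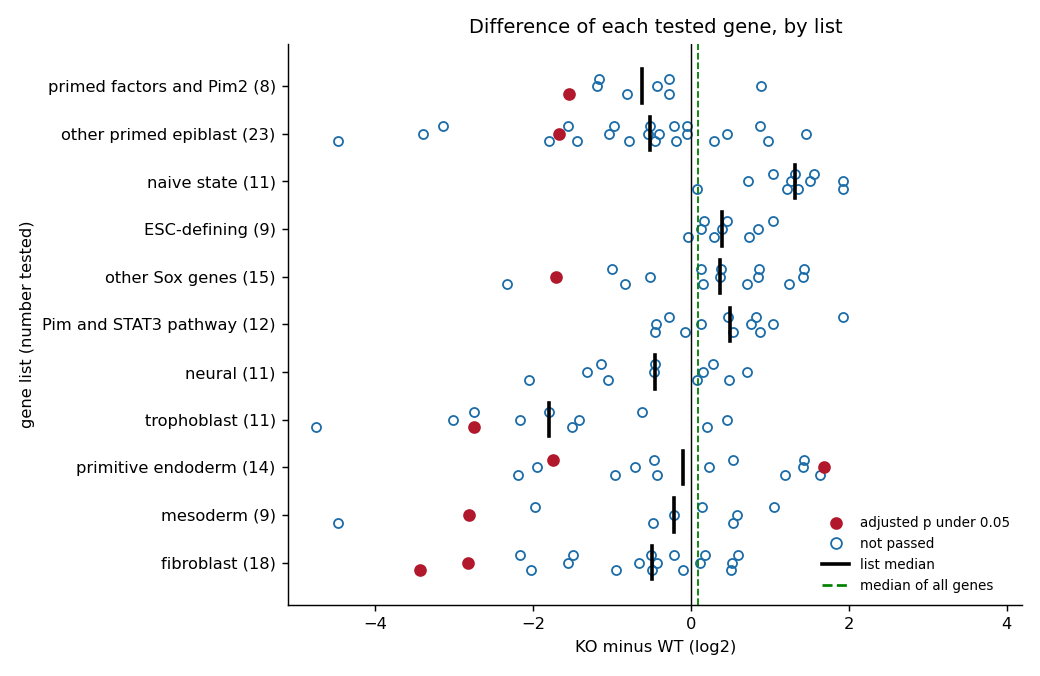
KO minus WT on the log2 scale (horizontal axis) of each tested gene, by gene list (vertical axis, number tested in brackets, without the small Zic, Sall, Otx, Pou3f and Foxd families). Filled points passed limma's test over all genes and open points did not. Black bars are list medians and the dashed line the median of all genes. The naive list has its median at 1.32, and the genes described here and the other primed epiblast genes at -0.62 and -0.52. The trophoblast median is the lowest at -1.80, with fibroblast at -0.50, neural at -0.45, mesoderm at -0.22 and primitive endoderm at -0.10. Those of the ESC-defining, other Sox, and Pim and STAT3 lists are 0.40, 0.37 and 0.50.

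Some markers of other cell types differed between the lines as well. Of 11 tested trophoblast genes 1 fell, the keratin gene Krt8, at limma adjusted p = 0.04997, and over 16 alternatives this count ranged from 0 to 5. Of 9 mesoderm genes 1 fell (Mesp2), of 18 fibroblast genes 2 (the protease gene Mmp2 and the fibrillin gene Fbn1) and of 11 neural genes 0, while of 14 primitive endoderm genes Dab2 fell and the laminin gene Lama1 rose. Over the alternatives the counts of lower genes ranged from 0 to 1, 0 to 3, 0 to 2 and 0 to 4, in that order. At an unadjusted p under 0.05 limma gave 7 trophoblast genes lower and 1 higher, 2 mesoderm genes lower and 1 higher, 4 fibroblast genes lower and 0 higher, 2 neural genes lower and 0 higher, and 4 primitive endoderm genes lower and 2 higher. Differences were negative for 9 trophoblast, 5 mesoderm, 13 fibroblast, 6 neural and 7 primitive endoderm genes.

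A marker list's summed signal adds up probes of unequal brightness and mostly follows its brightest ones. The sum of 12 trophoblast markers was 301808 and 397176 in WT 1 and WT 2 and 88150 and 68543 in KO 1 and KO 2, of which the keratin genes Krt8 and Krt18 made up 71.6% to 92.2%. That of 12 mesoderm markers was 3844 and 1907 against 765 and 455, and T alone, the brachyury gene, gave 7.08% to 77.3% of it. That of 14 neural markers was 16804 and 21686 against 14898 and 10151, with 19.2% to 68.0% from the filament gene Nes, and the median of the tested neural genes was 0.29 for KO 1 minus WT 1 and -0.58 for KO 2 minus WT 2. The sum of 15 primitive endoderm markers was 41062 and 40239 in WT and 25796 and 22712 in KO lines. The matrix genes Sparc and Lamb1 gave 70.8% to 80.6% of it. Of the 14 tested genes, 7, Lama1 among them, had positive differences, against 59.2% of all genes. The sum of 18 fibroblast markers overlapped, at 125824 and 57878 in WT and 79866 and 78160 in KO lines, and WT 1 was the highest. The leading genes of the sums were named after their values were seen. Of the neural markers, Pou3f2 and Irx3 did not exceed background in any line, and Neurog2 exceeded it in WT 2 only. Otx2, Pou3f1, Sox4 and the Zic genes are also used by neural or mesodermal cells. The part of these markers in the differences given here was not tested.

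**Figure D4:**
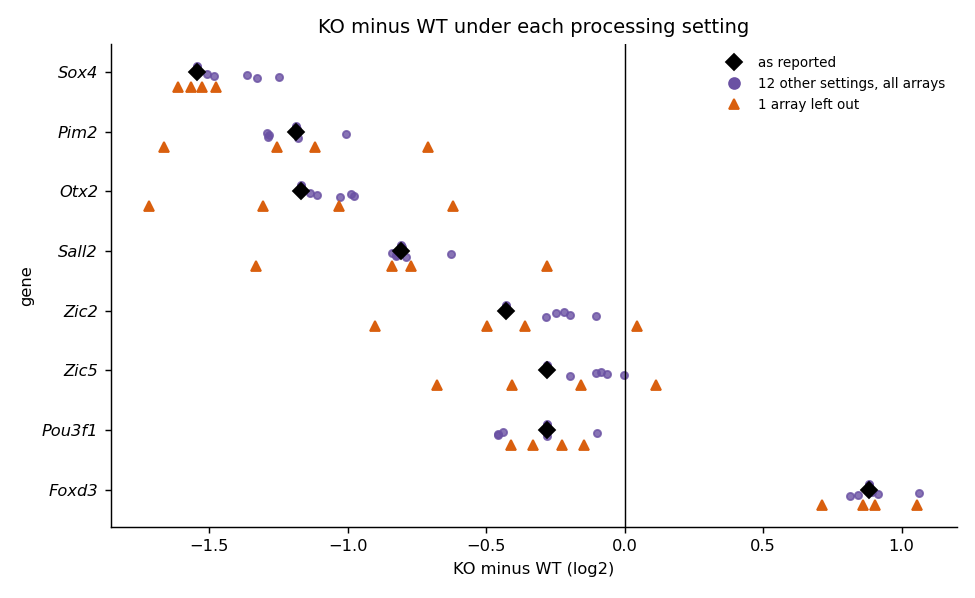
KO minus WT on the log2 scale (horizontal axis) of each measured gene (vertical axis) under each processing setting. Diamonds are the reported values, circles 12 other settings with all arrays and triangles the values with 1 array left out; Sox4 stays between -1.61 and -1.25 and Foxd3 between 0.71 and 1.06, while Zic2 and Zic5 cross 0 without KO 2.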

How the data were processed

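Total RNA of 4 ESC lines was measured on 1-colour arrays. Per the file headers, version 10.7.3.1 of Agilent Feature Extraction produced the spot intensity values, and the array annotation is on build mm9. The processed intensity is background-subtracted within each array and not scaled between arrays. The saturation and outlier flags come from the same software. A further deposited table gives log2 values whose scaling is not stated and which correlated with the log2 signal at 0.999895 or more on every array. Symbols come from a RefSeq table of another build, so no gene coordinates are given apart from the RefSeq promoter windows.

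Each array's log2 processed signal was set to a common 75th percentile, without control and outlier-flagged spots. Spots of a probe were averaged. Of 41174 probes, 26690 matched 1 symbol and 14484 none. A probe was kept where it was well above background on both arrays of a group, and each gene was represented by its brightest probe, so that 21639 genes and transcripts entered the test. KO was set against WT in limma (version 3.58.1, R version 4.3.3; lmFit, eBayes, Benjamini-Hochberg at 0.05 over all genes), a procedure tested on simulated data. The number of arrays, 2 per group, limits the precision. Equal line numbers mark a shared mother in the labels, and deviations of same-mother arrays correlated at 0.19, so the mother served as a block in an alternative fit. Named genes are all 9 genes, the nearest gene in pattern to each, up to 4 genes of each list with the smallest p, and the targeted locus. The genes and lists were chosen with earlier results of these data known. The file headers lack a mean spot signal, so normexp (offset 50) used the median. A planned protein comparison was not run. Some genes of the lists are counted but not reported here by name.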

Additional observations from a re-analysis of the deposited data

Results flagged for a closer look

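Zic2 differed in sign between the pairs of lines. KO minus WT was 0.11 on the log2 scale in the pair of mother 1046 and -0.97 in the pair of mother 875, with 1 array on each side, so this difference between the pairs was not tested. Opposite signs in the pairs were seen for 24% of all genes.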

How the results depend on the processing

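Results were recomputed under 16 alternatives, 12 with all arrays (other background correction, scaling, filter, probe rule or spread model, the deposited values, and the mother as a replicate block) and 4 that left out 1 array each. The signs of Sox4, Pim2, Otx2, Sall2, Pou3f1 and Foxd3 did not change under any of them. Zic2 turned to 0.044 and Zic5 to 0.11 (log2) without KO 2, and the cause was not tested. Sox4 passed in 9 alternatives and not in 7, over which limma's adjusted p ranged from 0.0322 to 0.225 and its log2 difference from -1.61 to -1.25. The number of the 8 genes called lower was 1 as reported and 0 where probes had to be above background on all arrays (Sox4 adjusted p = 0.0577), without the filter on dim probes (0.0562) and with the replicate block (0.101), with 2, 2 and 3 of the 8 lower and 1 higher each at an unadjusted p under 0.05. Over all genes, 0 passed with probes above background on all arrays, and 0 with the replicate block. Without the filter on dim probes 266 were called lower and 9 higher. Leaving out 1 array moved Zic2 between -0.90 and 0.044, Zic5 between -0.68 and 0.11 and Sox4 between -1.61 and -1.48. Sox4 was not called in any of these 4 fits. Since 1 group is a single line in each, a missing call there does not by itself show that Sox4 depends on 1 line. None of the 8 was called higher in any alternative, and none but Sox4 was called lower. As reported, limma's adjusted p was 0.190 for Pim2, 0.311 for Sall2 and 0.112 for Foxd3. With 1 line left in a group, that line is assumed to vary like the other group. Among these genes, the dim Zic2 and Zic5 are most limited by signal over background.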
